A study of Mus musculus with 12 samples.

Results

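The receptors of interleukins 2, 4, 7, 9, 15 and 21 share a subunit, the common gamma chain, and the 8 genes of these receptors were followed in mouse CD8+ T cells through activation and a day of culture in collagen gels. They were chosen by symbol, as the gamma chain gene Il2rg and the partner genes Il2ra, Il2rb, Il4ra, Il7r, Il9r, Il15ra and Il21r. All 8 were found among the 55291 gene symbols of the deposited count table, and all 8 passed the filter on low counts in every comparison. Bulk RNA was sequenced after depletion of ribosomal RNA from 12 libraries in 4 groups of 3, all of wild-type (WT) male mice. CD8+ T cells of spleen and lymph nodes were activated for 2 days with plate-bound antibody to CD3 and soluble CD28, kept for 1 day in recombinant mouse interleukin 2, and moved for 24 h into rat tail collagen gel (RatCol, 2 mg/mL), bovine collagen gel (Nutragen, 2 mg/mL) or media, with RNA taken on day 4. Naive cells were taken on day 0. The day 4 groups therefore share the activation and the interleukin 2, a ligand of these receptors. The labels do not say that each library is a separate mouse, so the p-values measure the spread between libraries, which may be technical.

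Each cytokine of this family is bound by a private chain together with the gamma chain, and interleukins 2 and 15 also use Il2rb, a chain they share. The chains have no enzyme of their own: they carry the kinases JAK1 and JAK3, which phosphorylate STAT proteins. T cells use the family for survival (interleukin 7), for growth after activation (interleukin 2) and for the upkeep of memory cells (interleukins 7 and 15). Activation is known to induce Il2ra, the chain that gives high affinity for interleukin 2, and effector CD8+ T cells are known to carry little Il7r.

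Promoter sequence is shown for the most abundant member called higher in rat tail collagen against media, Il2ra, and for the member with the greatest fall, Il7r. Promoters from RefSeq (build GRCm38.p6) matched 7 of the 8 members. The stretch of 250 bases before the Il2ra start lies at chr2:11642542-11642791 on the plus strand, and that of 160 bases before the Il7r start at chr15:9529877-9530036 on the minus strand, with starts as RefSeq places them (11642792 and 9529876). The gene span given for Il7r further on reaches past this start because of a noncoding transcript whose first exon lies at 9530041 to 9530176, so the Il7r window lies inside that span, upstream of the coding transcripts (first base 9529835) and in an intron of the noncoding one. Both read 5′ to 3′, and capitals mark matches to the letters searched.
Il2ra: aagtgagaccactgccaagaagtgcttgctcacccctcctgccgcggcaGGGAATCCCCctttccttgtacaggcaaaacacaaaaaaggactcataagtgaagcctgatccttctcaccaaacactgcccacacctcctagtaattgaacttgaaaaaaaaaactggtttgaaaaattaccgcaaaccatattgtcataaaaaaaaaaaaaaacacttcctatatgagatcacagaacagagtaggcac
Il7r: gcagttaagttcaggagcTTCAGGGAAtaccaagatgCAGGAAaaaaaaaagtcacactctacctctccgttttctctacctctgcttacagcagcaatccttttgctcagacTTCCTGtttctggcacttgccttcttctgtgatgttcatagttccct
The capitals in Il2ra match GGGA and CCC set 3 bases apart, a form of the NF-kB site, 201 bases before the RefSeq start. Those in Il7r match TTCNNNGAA, the spacing that STAT5 binds, 142 bases before the RefSeq start, and TTCCTG, a core of ETS factors, 47 bases before it and, on the other strand as CAGGAA, 123 bases before it. Of 32851 promoters, searched over 250 bases on both strands, 4.77% held the NF-kB letters, 7.02% the STAT5 letters, 25.7% the ETS letters and 14% a RUNX core, TGTGGT. Among the 8 promoters of the 7 matched members, 1 held the NF-kB letters, 1 the STAT5 letters, 2 the ETS letters and 3 the RUNX letters, and no matches overlapped in the windows shown. These are matches of letters, not measured binding.

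Libraries held 28483064 to 53138362 counts. Levels are given in CPM, each library's reads scaled by its total and a TMM factor, and changes as log2 fold changes from edgeR's quasi-likelihood test with Benjamini-Hochberg adjusted p over all genes tested, where an adjusted p under 0.05 made a call. Ribosomal RNA genes took 5.22 to 13.4% of counts in rat tail collagen, 5.65 to 12.02% in bovine collagen, 4.60 to 4.86% in media and 4.03 to 5.79% in naive cells. The T cell markers Cd3d, Cd3e, Cd3g, Cd8a, Cd8b1 and Trac summed to 2039 to 2285 CPM in rat tail collagen, 2714 to 2918 in bovine collagen, 2723 to 2925 in media and 3328 to 4013 in naive cells, so the markers of the labelled cell type were present in every library. Offsets for GC content and transcript length moved the median of all genes to 0.13 in rat tail collagen against media, where 61.2% of calls were then higher against 50.9% without them. In media against naive they moved it to -0.18, with 39.2% of calls higher against 52% without them. In rat tail collagen against bovine collagen, scaling by library totals moved it to 0.15, with 66.3% of calls higher against 51.8% with TMM factors, and the GC and length offsets moved it to 0.13.

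In rat tail collagen against media the chains moved in both directions: Il2ra, Il2rg and Il9r were higher, Il4ra and Il7r were lower, and Il2rb, Il15ra and Il21r did not pass. Of all 19392 genes tested 58.4% were called, 29.7% higher and 28.7% lower, so 5 calls among 8 members is a share near the background. The members' median change was -0.12, beside -0.01 over all genes. The private chain of interleukin 2 and the shared gamma chain were higher, while the private chains of interleukins 4 and 7 were lower.

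**Figure D1:**
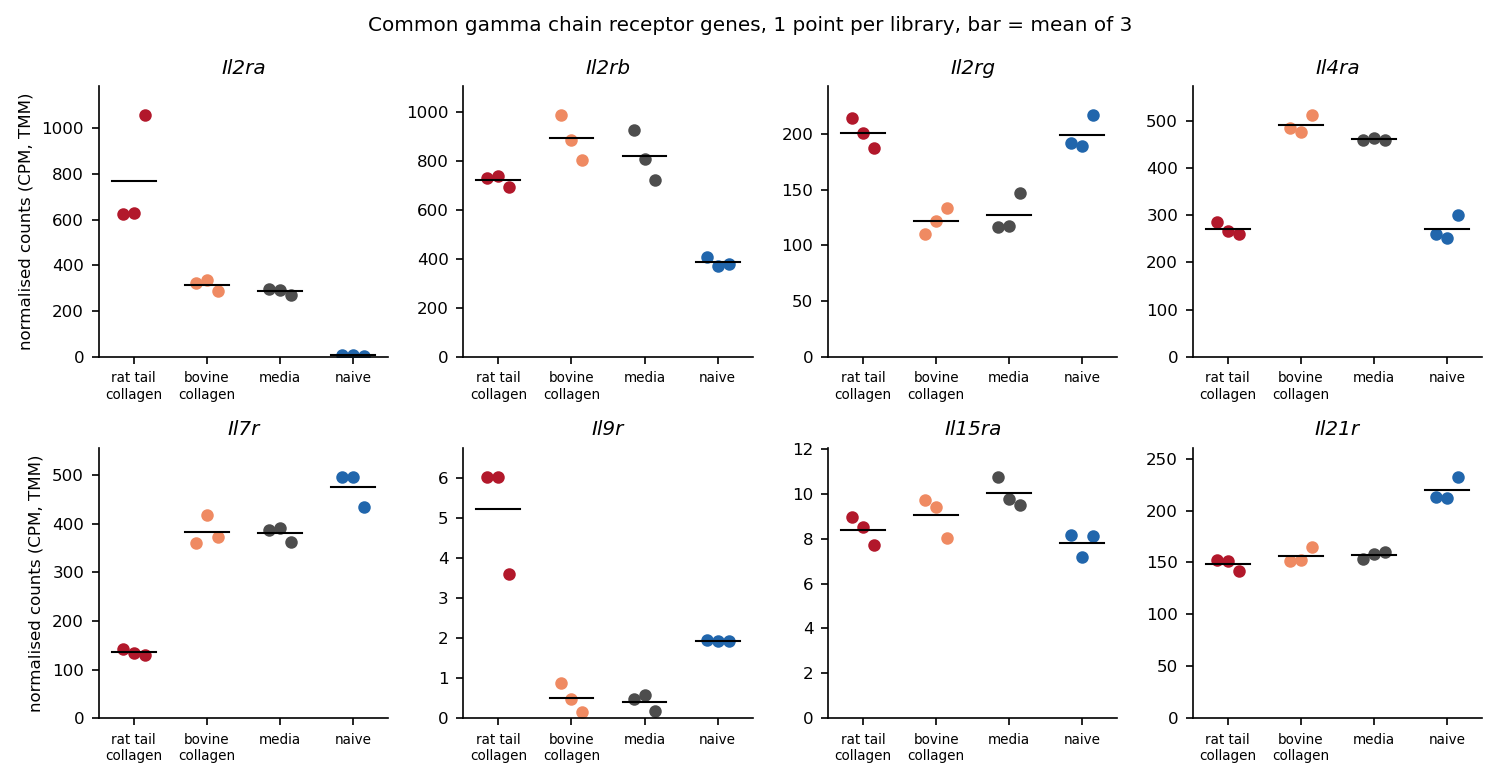
Normalised counts (CPM, linear axes from 0) of the 8 receptor genes, 1 point per library and a bar at the mean of the 3 libraries in rat tail collagen, bovine collagen, media and naive cells. Rat tail collagen lies above every other group for Il2ra and Il9r and below every other group for Il7r, and it overlaps naive cells for Il2rg and Il4ra.

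The gamma chain gene Il2rg (GRCm38, chromosome X, 101264378 to 101268255, minus strand) had 215, 201 and 187 CPM in rat tail collagen, against 117, 118 and 147 CPM in media. Every rat tail collagen library was above every media library, and the change was 0.68 ± 0.11 (log2, SE; 95% interval 0.44 to 0.91, adjusted p = 2.15e-04). In the annotation 30.5% of its exon bases also belong to Gm20489, a gene on the same strand with 0 to 4 counts per library. How reads in such shared bases were counted is not given in the sources used here, so the level of Il2rg set against other genes is uncertain. Il2rb, the chain shared by the receptors of interleukins 2 and 15 (chromosome 15, 78479256 to 78495271, minus strand), had 729, 737 and 694 CPM in rat tail collagen, against 925, 809 and 723 in media. The groups overlapped, and the difference of -0.17 did not pass (95% interval -0.40 to 0.06, adjusted p = 0.188), although it did with the GC and length offsets (-0.23, adjusted p = 0.0412).

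Il2ra, the private alpha chain of the interleukin 2 receptor (chromosome 2, 11642807 to 11693193, plus strand), had 624, 630.1 and 1058 CPM in rat tail collagen 1, 2 and 3, against 299, 294 and 272 CPM in media. All rat tail collagen libraries lay above all media libraries, and library 3 stood above the other two. The change was 1.44 ± 0.18 (95% interval 1.05 to 1.83, adjusted p = 3.37e-05), or 2.71-fold, and 1.14 without rat tail collagen 3 (adjusted p = 3.75e-06). In bulk RNA, fewer cells of a type and less RNA per cell cannot be told apart. Markers of CD4+ and regulatory T cells, which can also carry Il2ra, were summed. They came to 74.3 to 88.9 CPM in rat tail collagen, against 36.4 to 45.2 in media. Zbtb7b made up most of the sum, at a mean of 53.8 CPM in rat tail collagen against 26.45 in media. Of the 5 markers 2 were higher, Zbtb7b by 1.04 and Ikzf4 by 0.77, and 0 lower. Over all genes 29.7% were higher and 28.7% lower, and with a list this short nothing is read from the count. Foxp3, the defining factor of regulatory T cells, had 3.58, 4.04 and 19.2 CPM in rat tail collagen, against 0.498, 0.904 and 4.31 in media, and did not pass (2.25, adjusted p = 0.132). Its highest value was in rat tail collagen 3, the library with the most Il2ra. Library 3 also had the most Foxp3 of its group in media (4.31 CPM) and in bovine collagen (4.43 CPM). In those groups, however, library 3 had the least Il2ra, 272 CPM in media and 289 CPM in bovine collagen. Cd4 itself averaged 2.39 CPM in rat tail collagen against 2.92 in media, and the part of such cells in the Il2ra values was not tested.

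Il7r, the private chain of the interleukin 7 receptor (chromosome 15, 9505788 to 9530176, minus strand), had 143, 135 and 131 CPM in rat tail collagen, against 386, 390.3 and 362 in media. The groups lay far apart, and the change of -1.46 ± 0.08 (95% interval -1.64 to -1.29, adjusted p = 7.34e-08) had the smallest p of the 8 genes. Il4ra, a chain of the receptors of interleukins 4 and 13 (chromosome 7, 125552120 to 125579474, plus strand), had 286, 267 and 259.8 CPM in rat tail collagen, against 460.1, 463 and 459 in media. It was lower, with a change of -0.75 ± 0.07 (adjusted p = 4.02e-06), again with no overlap. Crlf2, which pairs with Il7r in the receptor of thymic stromal lymphopoietin, averaged 10.4 CPM in rat tail collagen against 26.0 in media and was lower too (-1.30, adjusted p = 9.13e-07). Il13ra1, the partner of Il4ra for interleukin 13, was near 0 in both groups and was not tested.

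Il9r, the interleukin 9 receptor (chromosome 11, 32187541 to 32200279, minus strand), was the least abundant member per kilobase. It had 202, 356 and 127 counts in rat tail collagen, or 6.03, 6.02 and 3.59 CPM. In media it had 25, 24 and 8 counts, or 0.479, 0.571 and 0.174 CPM. The groups did not overlap, and the change of 3.69 ± 0.45 (95% interval 2.69 to 4.69, adjusted p = 3.36e-05) was the largest of the 8 genes, at a low level. Il15ra, which binds interleukin 15 and presents it to neighbouring cells (chromosome 2, 11705290 to 11734317, plus strand), had 8.95, 8.50 and 7.72 CPM in rat tail collagen, against 10.8, 9.77 and 9.50 in media. The libraries did not overlap, yet the difference of -0.24 did not pass (95% interval -0.48 to 0.00, adjusted p = 0.0844). Il21r, the private chain of the interleukin 21 receptor (chromosome 7, 125603429 to 125633570, plus strand), had 152, 152 and 142 CPM in rat tail collagen, against 153, 158 and 160.1 in media. Here too the libraries just failed to overlap and the difference of -0.06 did not pass (95% interval -0.21 to 0.08, adjusted p = 0.440).

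Among these genes are neighbours on the chromosome whose calls differed. Il15ra begins 12.1 kb after the end of Il2ra, and Il21r begins 24.0 kb after the end of Il4ra. Il2ra was higher and Il4ra lower in rat tail collagen, while Il15ra and Il21r did not pass, and whether the neighbours' changes differ was not tested.

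Bovine collagen against media set a gel of the same stated concentration beside the same control. None of the 8 members passed with edgeR, DESeq2 or limma-voom, where 0.0206% of all genes tested were called by edgeR (4 of 19392, with 810 at an unadjusted p under 0.05; DESeq2 called 22 and limma-voom 3). Il2ra had 323, 334 and 289 CPM in bovine collagen, against 299, 294 and 272 in media, a difference of 0.14 (95% interval -0.24 to 0.52). Il7r had 361, 417 and 371 CPM in bovine collagen, against 386, 390.3 and 362 in media, a difference of 0.02 (-0.15 to 0.19). In both genes the groups overlapped. Il2rb had 987, 885 and 804 CPM in bovine collagen, against 925, 809 and 723 in media, a difference of 0.13 (-0.10 to 0.36). Il4ra had 484, 477 and 512 CPM in bovine collagen, against 460.1, 463 and 459 in media, a difference of 0.10 (-0.05 to 0.25). It was the only member whose libraries did not overlap. How many of all genes had no overlap was not counted, so nothing particular to Il4ra is read from this. The differences were -0.05 (-0.29 to 0.18) for Il2rg, -0.14 (-0.38 to 0.10) for Il15ra and 0.00 (-0.14 to 0.15) for Il21r. Il9r, with 31, 12 and 6 counts in bovine collagen, had the widest interval, -0.93 to 1.53 around 0.30.

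**Figure D2:**
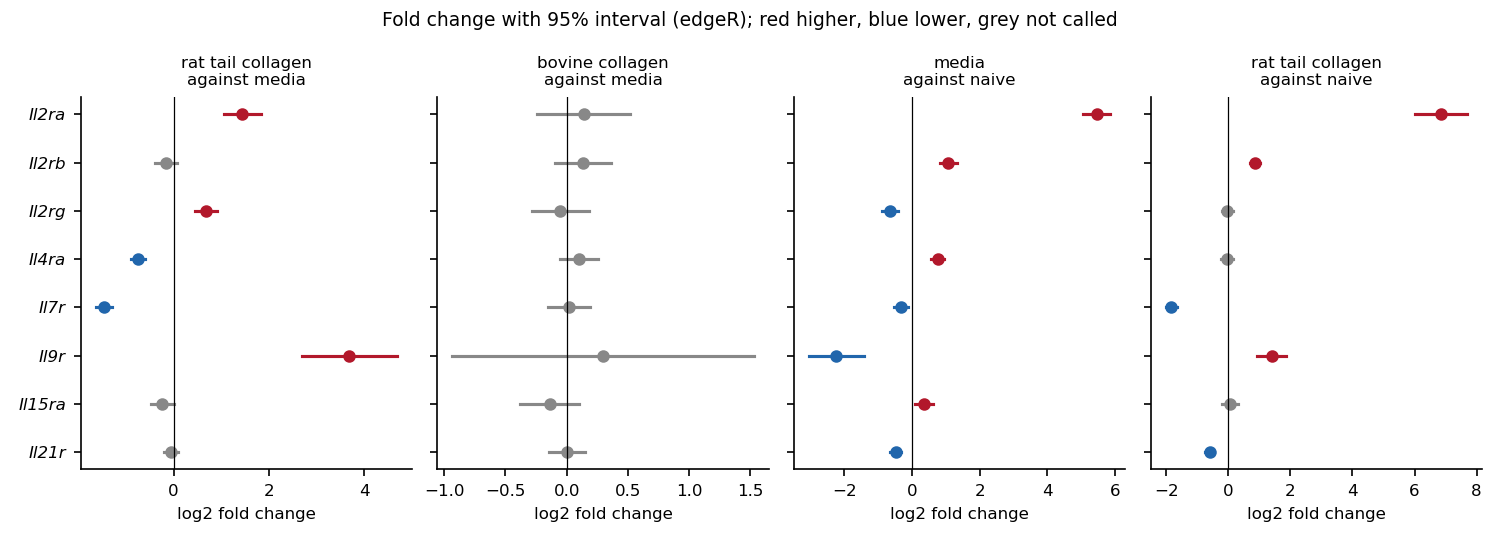
Log2 fold changes of the 8 genes with 95% intervals, 1 panel per comparison and each panel with its own axis range; genes called higher are red, called lower blue and not called grey. All intervals of bovine collagen against media include 0, while rat tail collagen against media has 3 called genes to the right of 0 and 2 to the left.

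Rat tail collagen set directly against bovine collagen had 3 members higher and 3 lower, where 54.7% of all genes were called, 28.4% higher and 26.4% lower. Il2ra differed by 1.30 ± 0.18 (adjusted p = 8.07e-05), Il2rg by 0.73 ± 0.11 (adjusted p = 1.43e-04) and Il9r by 3.39 ± 0.46 (adjusted p = 8.40e-05). Il7r was lower, at -1.48 ± 0.08 (adjusted p = 8.06e-08), as was Il4ra, at -0.85 ± 0.07 (adjusted p = 1.88e-06). None of these 5 genes had overlapping libraries. The share of all genes without overlap was not counted, so nothing particular to the members is read from this. The differences of Il15ra (-0.10, 95% interval -0.34 to 0.15) and Il21r (-0.06, -0.21 to 0.08) did not pass.

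Il2rb was the sixth call, with 729, 737 and 694 CPM in rat tail collagen, against 987, 885 and 804 in bovine collagen (-0.30, adjusted p = 0.0298). The libraries did not overlap, but the call was lost without bovine collagen 1 (-0.23, adjusted p = 0.0995), bovine collagen 2 (-0.31, adjusted p = 0.0620), or rat tail collagen 1 (-0.31, adjusted p = 0.0633), 2 (-0.31, adjusted p = 0.0656) or 3 (-0.28, adjusted p = 0.0790). It was also lost with a filter of 1 CPM in 3 libraries (-0.25, adjusted p = 0.0596) and with library totals as the scale (-0.15, adjusted p = 0.349). Without the 3 libraries of highest ribosomal RNA share the value was -0.28 (adjusted p = 0.331), with 1 rat tail collagen library left, which is assumed to vary like the other groups.

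Media against naive shows the change that activation and culture went with, outside any gel. All 8 members passed, 4 higher and 4 lower, where 60.8% of the 18610 genes tested were called, 31.6% higher and 29.2% lower. Il2ra had 299, 294 and 272 CPM in media, against 7.52, 7.37 and 4.74 in naive cells, a difference of 5.46 ± 0.18 (adjusted p = 1.94e-08), or 44.0-fold. It was the largest change of the 8 genes. Il2rb had 925, 809 and 723 CPM in media, against 409, 373 and 381 in naive cells, and was higher by 1.08 ± 0.11 (adjusted p = 3.13e-05). Il4ra had 460.1, 463 and 459 CPM in media, against 261, 253 and 301 in naive cells, and was higher by 0.76 ± 0.09 (adjusted p = 5.87e-05). Il15ra, with 10.8, 9.77 and 9.50 CPM in media against 8.16, 7.16 and 8.13 in naive cells, was slightly higher (0.35, adjusted p = 0.0244). Its call was lost without naive 1 (0.37, adjusted p = 0.0507), naive 2 (0.27, adjusted p = 0.126), media 1 (0.30, adjusted p = 0.0533) or media 2 (0.38, adjusted p = 0.0540), and with the GC and length offsets (0.14, adjusted p = 0.280).

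The gamma chain gene was among the 4 that were lower. Il2rg had 117, 118 and 147 CPM in media, against 192, 189 and 217 in naive cells (-0.65 ± 0.10, adjusted p = 5.23e-04). Il21r had 153, 158 and 160.1 CPM in media, against 213, 212 and 233 in naive cells (-0.48 ± 0.07, adjusted p = 3.11e-04). All 8 members were without overlap in media against naive. The share of all genes without overlap was not counted, so nothing particular to the members is read from this. Il7r had 386, 390.3 and 362 CPM in media, against 497, 496 and 434 in naive cells (-0.33 ± 0.09, adjusted p = 0.0102). Il9r had 25, 24 and 8 counts in media, against 77, 75 and 82 in naive cells (-2.24 ± 0.36, adjusted p = 5.28e-04).

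Markers of other cell types differed between media and naive cells as well. B cells carry Il4ra and Il21r, and their markers summed to 923 to 1037 CPM in media and 433 to 488 in naive cells, most of it Ighm, with 1 of 7 tested higher and 5 lower. Ms4a1, a defining B cell gene, averaged 0.0222 CPM in media, against 0.636 in naive cells. NK cells carry much Il2rb, and markers of NK and gamma-delta T cells summed to 83.6 to 92.2 CPM in media and 119 to 147 in naive cells. Most of this sum was Eomes, at a mean of 74.8 CPM in media and 90.6 in naive cells. Of these markers 4 of 5 were lower, with Ncr1 at 0.0328 against 7.64 CPM. Myeloid markers summed to 23.3 to 43.2 CPM in media and 41.3 to 139.6 in naive cells, with 1 of 8 higher and 4 lower. Lyz2 was at 0.0744 CPM in media, against 34.1 in naive cells. Over all genes 31.6% were higher and 29.2% lower in media against naive. In rat tail collagen against media, 1 of 4 NK and gamma-delta markers was higher (Klrb1c, 8.69 against 0.329 CPM) and 2 lower, 1 of 4 B cell markers was higher and 1 lower, 2 of 5 myeloid markers were higher and 3 lower, and 3 of 6 T cell markers were lower. The sums in rat tail collagen were 43.0 to 75.7 CPM for NK and gamma-delta markers, 711 to 1028 CPM for B cell markers and 23.2 to 29.4 CPM for myeloid markers. Eomes again made up most of the NK and gamma-delta sum, at a mean of 43.1 CPM in rat tail collagen. Over all genes 29.7% were higher and 28.7% lower in rat tail collagen against media. With lists this short, nothing particular to any cell type is read from the counts of markers called. Lyz2, Csf1r, Ncr1 and Ms4a1 were at or near 0 in every day 4 group. The part of such cells in the members' values was not tested.

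Rat tail collagen against naive placed the gel cells beside cells of day 0. Of the members 3 were higher and 2 lower, where 71.9% of 19449 genes were called, 36.5% higher and 35.4% lower. Il2rg had 215, 201 and 187 CPM in rat tail collagen, against 192, 189 and 217 in naive cells, a difference of -0.02 that did not pass (95% interval -0.20 to 0.16, adjusted p = 0.801). Il4ra had 286, 267 and 259.8 CPM in rat tail collagen, against 261, 253 and 301 in naive cells, a difference of -0.04 (-0.22 to 0.15, adjusted p = 0.698). Both genes overlapped between the groups, and Il4ra passed with the GC and length offsets (-0.28, adjusted p = 0.00583). Il15ra did not pass (0.07, -0.18 to 0.32, adjusted p = 0.609). Il7r had 143, 135 and 131 CPM in rat tail collagen, against 497, 496 and 434 in naive cells (-1.84 ± 0.08, adjusted p = 2.43e-08), and Il21r was lower as well (-0.60 ± 0.07, adjusted p = 2.38e-05). Il2ra (6.85 ± 0.34, adjusted p = 4.75e-06), Il2rb (0.86 ± 0.07, adjusted p = 2.68e-06) and Il9r (1.40 ± 0.21, adjusted p = 1.62e-04) were higher. This comparison shares libraries with those of rat tail collagen against media and of media against naive.

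To set the chains beside each other, CPM was divided by the kilobases of annotated exon of each gene, 2.387 kb for Il2rg and 6.002 kb for Il4ra, for example. The 8 genes together came to 489 to 542 CPM per kb in rat tail collagen, 511 to 539 in bovine collagen, 483 to 525 in media and 382 to 396 in naive cells. In rat tail collagen Il2rb, at a mean of 168 CPM per kb, and Il2ra, at 135, overlapped at the top of the order, followed by Il2rg at 84.1, Il4ra at 45.1 and Il21r at 44.7, which overlapped, Il7r at 29.2, Il15ra at 1.89 and Il9r at 1.05. Bovine collagen had Il2rb first at 208 CPM per kb, then Il7r at 82.2 and Il4ra at 81.9, which overlapped, then Il2ra at 55.2, Il2rg at 51.1 and Il21r at 47.1, each overlapping its neighbour, and Il15ra at 2.04 and Il9r at 0.102 last. In media Il2rb also led at 191 CPM per kb, ahead of Il7r at 81.4 and Il4ra at 76.8, with Il2rg at 53.3, Il2ra at 50.5 and Il21r at 47.3 overlapping as neighbours, and Il15ra at 2.25 and Il9r at 0.0825 last. In naive cells Il7r came first at 102 CPM per kb and overlapped Il2rb at 90.4, which overlapped Il2rg at 83.5, and Il21r at 66.0, Il4ra at 45.2, Il15ra at 1.76, Il2ra at 1.15 and Il9r at 0.391 followed. Il2ra thus stood second of the 8 in rat tail collagen and seventh in naive cells, and Il7r sixth in rat tail collagen and first in naive cells.

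As a share of the summed level per kb, Il2ra made up 22.0% to 34.2% in rat tail collagen, 9.90% to 11.0% in bovine collagen, 9.88% to 10.3% in media and 0.210% to 0.338% in naive cells. The share of Il7r was 5.17% to 6.16% in rat tail collagen, 14.3% to 16.8% in bovine collagen, 15.8% to 16.7% in media and 23.5% to 27.9% in naive cells. For Il2rg the share was 14.5% to 18.1% in rat tail collagen, 8.57% to 11.0% in bovine collagen, 9.31% to 12.8% in media and 20.4% to 23.0% in naive cells. These are shares of transcript reads and do not measure protein at the cell surface.

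**Figure D3:**
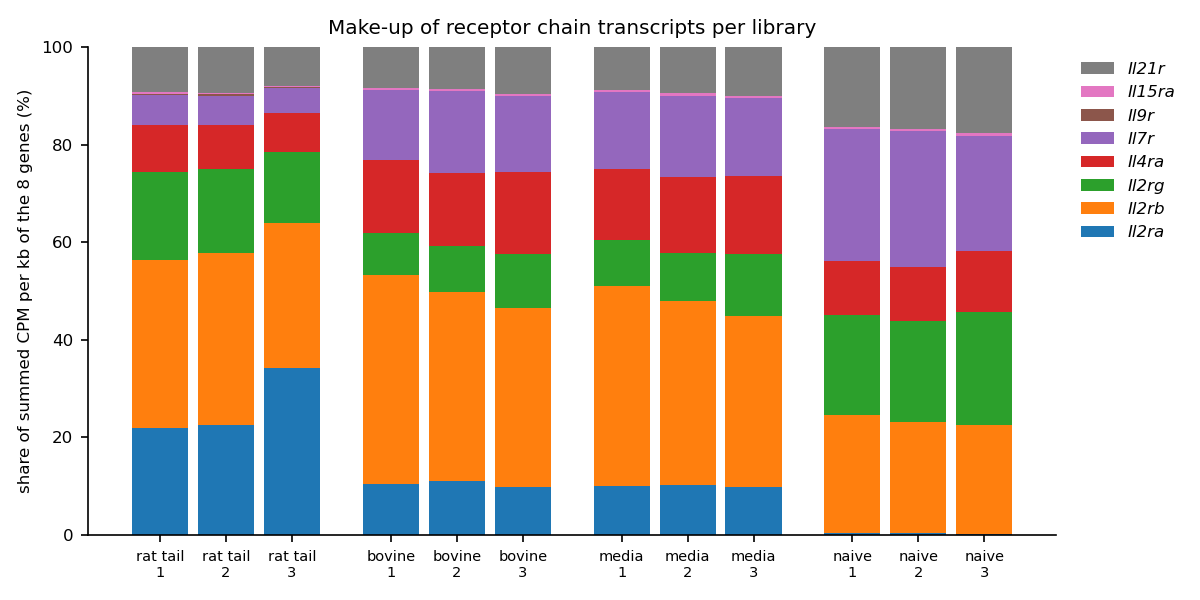
Share (%) of each gene in the summed CPM per kb of exon of the 8 genes, 1 stacked bar per library, grouped as rat tail collagen, bovine collagen, media and naive cells. Il2ra takes 22.0% to 34.2% of the rat tail collagen bars and 0.210% to 0.338% of the naive bars, and Il7r takes 5.17% to 6.16% and 23.5% to 27.9% of them.

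Transcripts of the cytokines themselves were scarce. Of the 6 ligand genes, 2 passed the filter on low counts in rat tail collagen against media. Il2 averaged 1.08 CPM in rat tail collagen against 1.61 in media (-0.56, adjusted p = 0.0330), and Il15 0.439 CPM in rat tail collagen against 0.205 in media (1.05, adjusted p = 0.0478). Il4, Il7, Il9 and Il21 were too low to be tested, and Il9 had no counts in any day 4 library.

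Genes that carry the signal inward changed in both directions, with 3 of 7 JAK and STAT genes higher and 2 lower in rat tail collagen against media (median 0.19). Over all genes 29.7% were higher and 28.7% lower in this comparison, and 31.6% higher and 29.2% lower in media against naive, and with lists this short nothing particular to any of them is read from its counts. Jak3, the kinase bound to the gamma chain, averaged 69.9 CPM in rat tail collagen against 127 in media (-0.84, adjusted p = 1.02e-05). Jak1, the kinase of the partner chains, was lower too (-0.75, adjusted p = 4.46e-05). Stat3, the main STAT of interleukin 21, was higher by 0.88 (adjusted p = 1.75e-06) and Stat5a, a STAT of interleukins 2, 7 and 15, by 0.60 (adjusted p = 4.88e-05). In media against naive 0 of these 7 were higher and 4 lower.

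Among 5 feedback genes, which restrain this signalling, 3 were higher and 1 lower in rat tail collagen against media (median 1.20), where 29.7% of all genes were higher and 28.7% lower. Cish, a target of STAT5, had 123, 129 and 181 CPM in rat tail collagen, against 37.5, 56.8 and 69.1 in media (1.43, adjusted p = 8.95e-04). Socs3 (1.24, adjusted p = 2.59e-06) and Socs2 (1.20, adjusted p = 0.00455) were higher. Socs2 had 32.2, 33.2 and 71.8 CPM in rat tail collagen, against 18.7, 19.5 and 22.3 in media, so rat tail collagen 3 stood above the others. Ptpn2, a phosphatase of JAK and STAT proteins, was lower (-1.16, adjusted p = 7.28e-08). Of 9 genes known as targets of these cytokines 2 were higher and 5 lower (median -0.41), against the same background. The survival gene Bcl2l1 was at 1.22 (adjusted p = 4.99e-07), the cyclin genes Ccnd3 and Ccnd2 at -0.77 (adjusted p = 1.28e-06) and -0.72 (adjusted p = 2.24e-04), and the cytokine gene Osm at -1.34 (adjusted p = 7.38e-06). In media against naive 3 feedback genes were higher and 1 lower, and 4 targets were higher and 4 lower, where 60.8% of all genes were called.

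Of 10 transcription factor genes listed as regulators of these receptors, 3 were higher and 5 lower in rat tail collagen against media (median -0.52), where 58.4% of all genes were called. Gfi1, known to repress Il7r, averaged 148 CPM in rat tail collagen against 50.2 in media (1.57, adjusted p = 9.95e-08). Foxo1, known to activate Il7r and named after its value was seen, averaged 149 CPM in rat tail collagen against 255 in media (-0.75, adjusted p = 1.88e-04). Tbx21, known to promote Il2rb, was at 0.88 (adjusted p = 1.29e-04), Ets1 at -0.87 (adjusted p = 8.55e-06) and Runx1 at -1.60 (adjusted p = 1.95e-05). In the rest of the list Runx3 was at 0.40 (adjusted p = 0.00131), Gabpa at -0.30 (adjusted p = 0.00220) and Eomes at -0.78 (adjusted p = 0.00288). Foxp1 (-0.16, adjusted p = 0.209) and Prdm1 (-0.97, adjusted p = 0.137) did not pass. Their part in the receptor values was not tested. In media against naive 6 of the 10 were higher and 3 lower, where 60.8% of all genes were called.

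As a setting for the 8 genes, 17 genes of other cytokine receptors had 3 higher and 10 lower in rat tail collagen against media (median -0.54), where 29.7% of all genes were higher and 28.7% lower. Those with the smallest p were Il27ra (-1.78, adjusted p = 4.02e-08), Il17ra (-1.26, adjusted p = 1.68e-06), Il10rb (-0.80, adjusted p = 5.51e-06) and Ifngr1 (-1.09, adjusted p = 5.67e-06), all lower. In media against naive 9 were higher and 5 lower, beside 60.8% of all genes called, with Il12rb2, an inducible chain of the interleukin 12 receptor, at 5.41 (adjusted p = 8.19e-08). None of the genes on these lists passed in bovine collagen against media.

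**Figure D4:**
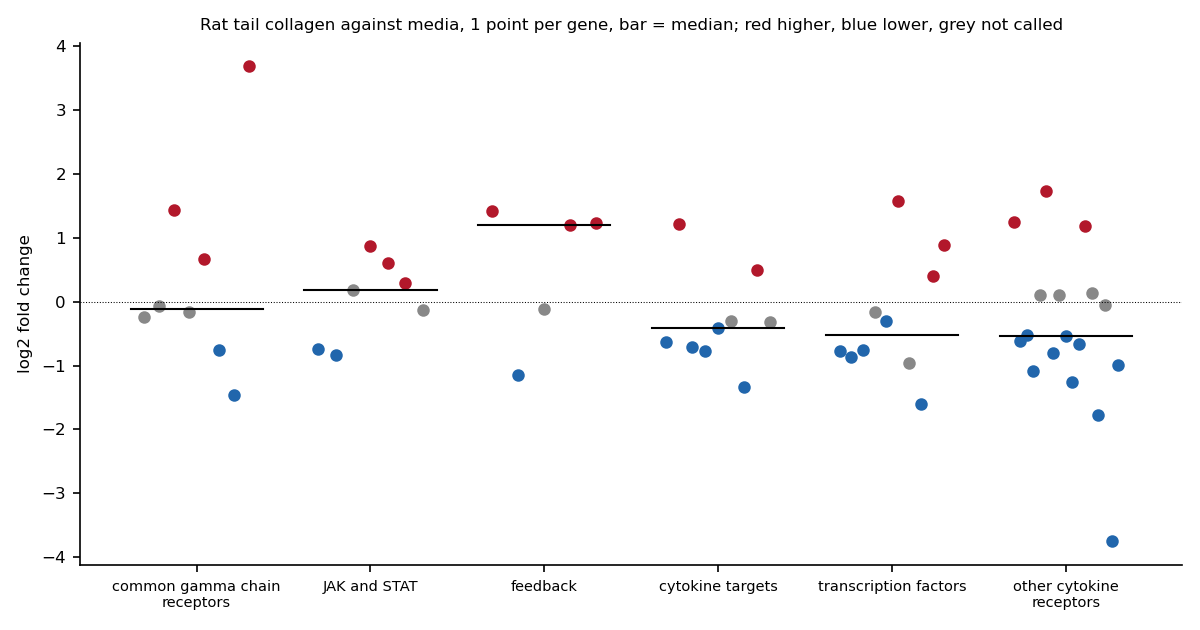
Log2 fold change in rat tail collagen against media, 1 point per tested gene of each list and a bar at the list's median; called genes are red (higher) or blue (lower) and the others grey. The receptor genes spread from -1.46 (Il7r) to 3.69 (Il9r), and 10 of the 17 other cytokine receptors were called lower.

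Over the 12 libraries each member's log2 CPM was correlated with that of 10044 other genes, as a description in which the 4 groups carry much of the spread. Most like Il2ra were Smim3 (0.996), Mfsd13a (0.995) and Lzts2 (0.994), with Pearson's r in parentheses. Most like Il7r were Cd84 (0.992), Ifi206 (0.991) and Cxcr6 (0.991). The nearest gene was Tnfrsf8 (0.993) for Il2rb, Zfp513 (0.981) for Il2rg, Smc1a (0.991) for Il4ra, As3mt (0.982) for Il9r and Klf10 (0.953) for Il15ra. Between members r was 0.89 for Il2ra and Il2rb, -0.987 for Il2ra and Il21r, and -0.908 for Il2rg and Il4ra.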

How the data were processed

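Bulk RNA of 12 libraries was sequenced, and the authors deposited raw read counts per gene symbol. Per the submitters' processing notes, the tools were HISAT2, featureCounts, SAMtools, Picard, FastQC and MultiQC, with the builds mm10 and GRCm38. The sources used here do not give their versions, the annotation release or the use of strand, so reads of overlapping genes cannot be assigned with certainty. Per the labels' protocols, RNA was DNase treated and prepared with RiboCop and KAPA RNA HyperPrep.

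Groups came from the labels. Counts were tested with edgeR 4.0.16 (R 4.3.3) after filterByExpr, with TMM factors and a robust quasi-likelihood fit, Benjamini-Hochberg over all genes tested. The 3 day 4 groups shared 1 fit, and comparisons with naive cells used 6 libraries. DESeq2 1.42.0, limma-voom (limma 3.58.1), other filters and scalings and leaving out each library were alternatives. The edgeR test of each comparison was also run on simulated counts with known changes. CPM used TMM factors over 12 libraries; correlations used log2 CPM with a prior count of 2 among genes with 5 CPM or more in a group. Exon lengths and positions came from the GENCODE annotation of GRCm38 and promoters from RefSeq. Members and lists were chosen with earlier results of these data known. From each list up to 4 genes with the smallest adjusted p were named, and those near 0. Foxo1 was added after its value was seen, as were the rest of its list and further cell type markers. Tcrg-C1 was not analysed here. Some genes that the rule names are not reported here. No replicates had identical counts.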

Additional observations from a re-analysis of the deposited data

How the results depend on the processing

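The counts of members called higher and called lower, 192 counts over 96 alternatives, stayed within 1.5 times their main value. Of 768 member fold changes under these alternatives, 751 kept their side of the threshold, 14 lost a call and 3 gained one, and the cause was not tested. No called value changed sign, but 26 values of members called under neither setting did: Il2rg, Il7r, Il9r and Il21r in bovine collagen against media, Il15ra and Il21r in rat tail collagen against bovine collagen, and Il2rg, Il4ra and Il15ra in rat tail collagen against naive. The lost calls were Il2rb in rat tail collagen against bovine collagen and Il15ra in media against naive, with the values given beside those results and, for the block, here. Whether libraries of the same replicate number belong together is not stated by the labels, and the correlations did not settle it. Same-number correlations of deviations from group means were not all over 0.1 for any pair of groups. For bovine collagen with media they were 0.37, 0.03 and 0.44 for numbers 1, 2 and 3. Of the libraries, 6 of 6 correlated best with their own number for rat tail collagen paired with media, and 6 of 6 with naive cells. The same held for 5 of 6 for bovine collagen with media, 4 of 6 for rat tail with bovine collagen and 2 of 6 for media with naive cells. These counts hint at pairing from the data and not the design, so the block was kept as an alternative. With the replicate number as a block, Il15ra in rat tail collagen against media gained a call (-0.24, adjusted p = 0.0395), Il15ra in media against naive lost its call (adjusted p = 0.0525), and all other member calls held; genes called numbered 12070 against 11319 without the block in rat tail collagen against media and 10407 against 11324 in media against naive. In bovine collagen against media the 4 genes called became 22 with DESeq2, 39 with no filter beyond 1 count, 9 with library totals, 7 with the block, 7 with GC and length offsets, 2 with only the 6 libraries compared, 1 without the 3 libraries of highest ribosomal RNA share, and 2 to 5 leaving out 1 library, with 2 without media 2. Without those 3 libraries (rat tail collagen 1 and 3 and bovine collagen 2), rat tail collagen has 1 library, assumed to vary like the other groups, and had 6726 genes called against media and 5485 against bovine collagen, where all libraries gave 11319 and 10617. Library totals, GC and length offsets and this omission were chosen after seeing the data. Il9r, with 6 to 31 counts in bovine collagen and 8 to 25 in media, is limited by depth.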
